A study of Mus musculus with 6 samples.

Results

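Complex I of the respiratory chain is built mostly from proteins encoded in the nucleus, and in mouse nearly all of their genes carry names that start with Nduf. All 52 genes with such a name were taken from the 29431 genes of the authors' deposited table. Of these, 46 were not processed pseudogenes: 7 core subunits, 30 accessory subunits, 8 assembly factors and Ndufa4. The other 6 were Ndufa11b, Ndufa12-ps, Ndufab1-ps, Ndufb4c, Ndufs5-ps and Ndufs6b, which the annotation types as processed pseudogenes. The libraries were made from wild-type (WT) mouse embryos at the 4-cell stage, 3 from untreated controls and 3 after exposure to AXKO-0046, an inhibitor of lactate dehydrogenase B (LDHB), the enzyme subunit associated with turning lactate into pyruvate while NAD is reduced to NADH. The sources used here give neither dose nor time of exposure nor strain, and no knockout of Ldhb is part of the comparison. The series description counts 6 embryos but does not say whether per group or per library. Whether the replicates are separate litters or cultures is on no label, and the p-values therefore speak for the spread between these 6 libraries alone, and that spread may be technical.

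Complex I takes electrons from NADH and passes them through a flavin and a chain of iron-sulfur clusters to ubiquinone, and it couples this to pumping protons across the inner mitochondrial membrane. It has an L shape. The hydrophilic arm holds the NADH module and the quinone module, whose core subunits are nuclear genes, and the membrane arm pumps protons with core subunits encoded by mitochondrial DNA (mt-Nd genes). Accessory subunits surround this core in both arms, and assembly factors act while the modules are joined but are not kept in the finished enzyme. Cleavage-stage mouse embryos carry mitochondria inherited from the oocyte and are known to rely on pyruvate and lactate before they can use glucose well.

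The levels are FPKM, read fragments scaled by the length of the gene and the size of the library, as the authors deposited them. Of 10 oocyte and embryo markers in the table, 8 had a mean of at least 1 FPKM, and the 10 summed to 86.8 to 108 FPKM in the controls and 57.6 to 88.4 FPKM under the inhibitor. Of 6 cumulus and granulosa cell markers only Amhr2 reached that mean, the list summed to 10.3 to 16.8 FPKM in the controls and 11.8 to 22.9 FPKM under the inhibitor, and Fshr and Foxl2, which define those cells, were at 0 in every control and at most at 0.071 FPKM under the inhibitor. Neither of 2 sperm markers reached 1 FPKM on average (at most 1.28 FPKM in sum). Inhibitor replicate 2 stood apart from the other 5 libraries. Its median Pearson correlation with the others across genes was 0.888 against 0.946 to 0.965, and its 7 markers of the 2-cell stage summed to 761 FPKM against 8.65 to 27.7 FPKM elsewhere. Inhibitor replicate 3 was the highest library in most Nduf genes. Where leaving out either of them moved a difference by over 1.5 times, its value without that library stands beside it. The part of these marker differences in the results below was not tested.

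Most nuclear complex I transcripts had a somewhat higher mean under the inhibitor, but no single one passed the test. Among the 51 Nduf genes that averaged 1 FPKM or more (Ndufa11b, at 0.0669 FPKM, was below it), 42 had a difference above 0 on the log2(FPKM + 1) scale, where 57.1% of the 9691 genes tested did. Their median difference was 0.25, beside 0.062 over all genes tested. Without inhibitor replicate 3 it was 0.13, beside 0.075. With pseudogenes set aside, 38 of 46 were above 0 (82.6%) and 8 below. These are counts over genes that share the same 6 libraries, and the genes are not replicates of the treatment. In a library of whole cells or embryos, more cells with a transcript and more of it per cell cannot be told apart.

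None of the 51 passed an adjusted p of 0.05 in limma, in either direction, and of all 9691 genes tested 0% passed as higher and 0% as lower. At an unadjusted limma p under 0.05, 3 Nduf genes were higher (Ndufa4, Ndufa1 and Ndufa11), where 4.72% of all genes tested were, and 0 were lower, where 3.8% were. The authors' deposited table marked 0 of the 52 genes and 0.792% of all genes, with the lowest q of an Nduf gene at 0.575. In 10 of the 51 (19.6%) all 3 inhibitor libraries were above all 3 controls, against a background of 9.13%, and in 0 they were all below, against 6.26%. That count depended on how the libraries were scaled. It was 3 of 51 (5.88%, all genes 6.41%) after median-ratio scaling and 0 (all genes 5.9%) after quantile normalization, whereas 39 and 37 of the 51 still had a difference above 0 (all genes 49.7% and 47.0%). With control replicate 1, 2 or 3 left out it was 19, 14 and 11 (37.3%, 27.5% and 21.6%, beside 13.5%, 14% and 14.7% of all genes). With inhibitor replicate 1, 2 or 3 left out it was 16, 18 and 11 (31.4%, 35.3% and 21.6%, beside 15.7%, 14.8% and 19.6% of all genes), so without inhibitor replicate 3 the share of the Nduf genes was close to that of all genes. The scalings turned the split of unadjusted calls over all genes from 457 higher and 368 lower into 299 and 512, and into 268 and 543.

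**Figure D1:**
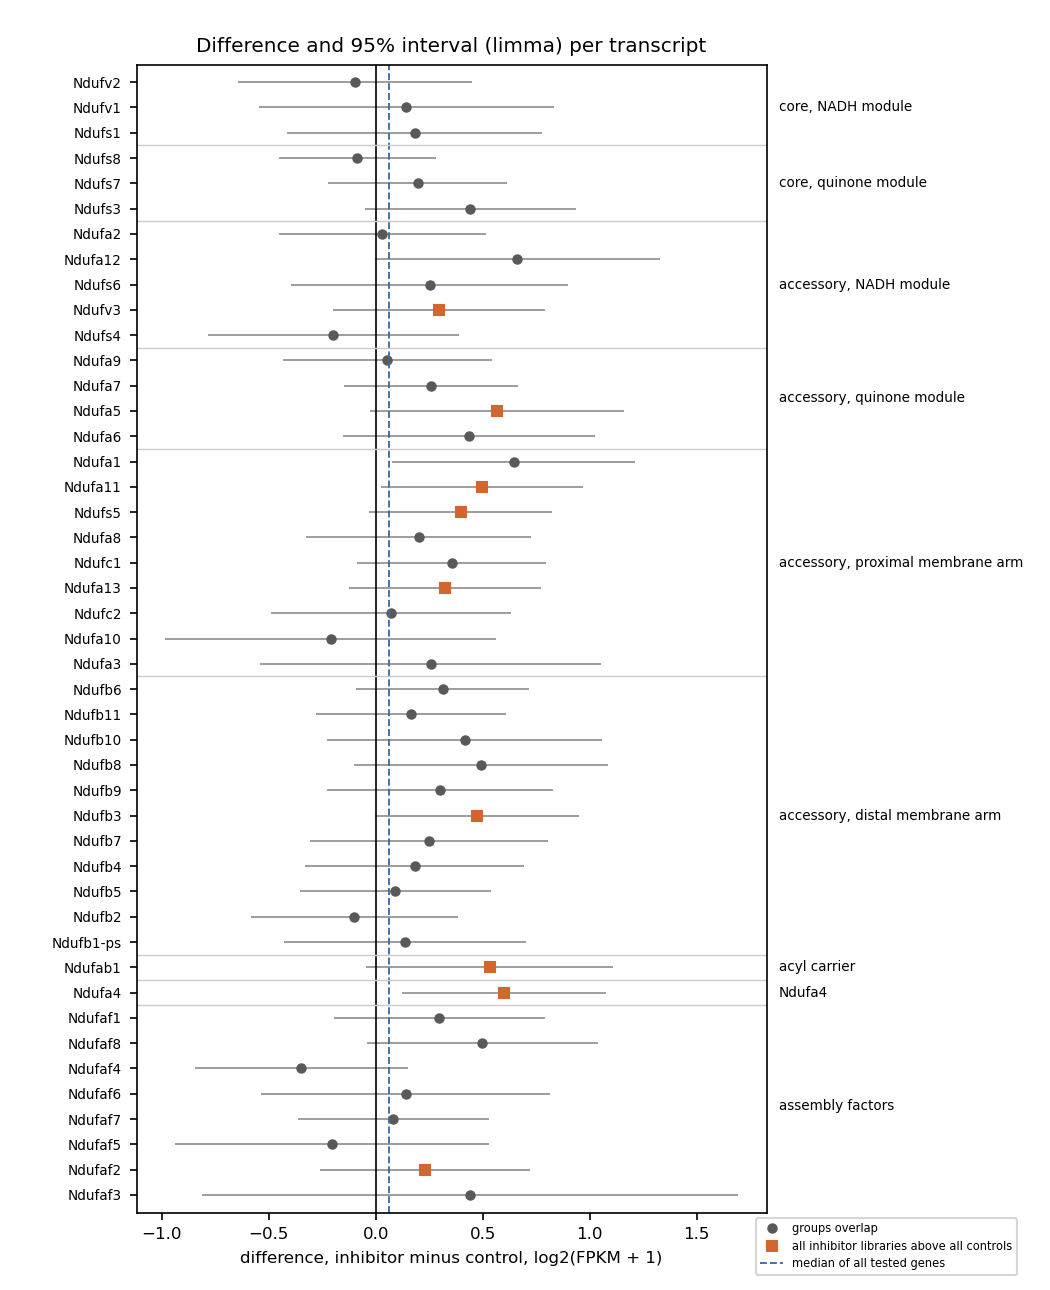
Difference between inhibitor and control means on the log2(FPKM + 1) scale for each of 45 Nduf genes other than processed pseudogenes, grouped by role, with the 95% interval of the limma fit (3 libraries per group). The dashed line marks the median of all tested genes (0.062). Most points lie to the right of 0 (38 of 45), and only the intervals of Ndufa4, Ndufa1 and Ndufa11 stay clear of it.

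The Nduf transcripts differed far more from each other than between the groups. In the controls the means of the 46 genes that are not processed pseudogenes spanned 1.74 FPKM (Ndufaf3) to 231 FPKM (Ndufb6), a ratio of 133, with a median of 28.2 FPKM. Ndufb6, an accessory subunit of the distal membrane arm, measured 224, 252 and 218 FPKM in the controls and 279.9, 243 and 348 FPKM under the inhibitor. The lowest inhibitor library lay within the range of the controls, and the difference was 0.31 (SE 0.18, limma adjusted p = 0.646). Ndufa2, an accessory subunit of the NADH module with a thioredoxin-like fold, followed in level with 187, 226 and 187 FPKM in the controls and 171, 181 and 274 FPKM under the inhibitor. The first 2 inhibitor libraries were below every control and the third above them all. The third highest was the core subunit Ndufs8, described with the core below. Of the 51 genes tested, Ndufab1-ps was among the lowest, at 3.05, 2.38 and 3.40 FPKM in the controls and 4.54, 1.9998 and 6.11 FPKM under the inhibitor, with groups that overlapped, just above Ndufs1 and Ndufaf3 in the order of control means. Without inhibitor replicate 3 the difference of Ndufb6 was 0.18.

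The order of genes depends on the length used to make an FPKM. For genes with several transcripts the deposited values, multiplied by the length of all exons of the gene merged in GENCODE M21, came out as whole sums in the sixth decimal in 98.3% of 76220 values (within 0.05 of that unit), and in 10.9% at 1 base more. This held in every library for all 40 Nduf genes that have several transcripts, while the other 12 have 1 transcript. The merged length counts retained introns and alternative ends, so it lowers the level of genes with many transcript forms and leaves ratios between libraries as they are. Differences on the log2(FPKM + 1) scale do shrink as the level of a low gene is lowered. Rescaled to the longest coding transcript, the control levels of the 45 Nduf genes that have one ran from 2.13 to 231 FPKM with a median of 44.6 FPKM. The rank correlation of both scales was 0.906 (Spearman, across these 45 genes, a description only). The factor between the scales was 1.41 at the median and at most 7.26, for Ndufb7, an accessory subunit of the distal membrane arm, which went from 23.1 to 168 FPKM. Ndufs1 went from 2.84 to 8.62 FPKM, since its merged exons span 8086 bases and its longest coding transcript 2661.

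**Figure D2:**
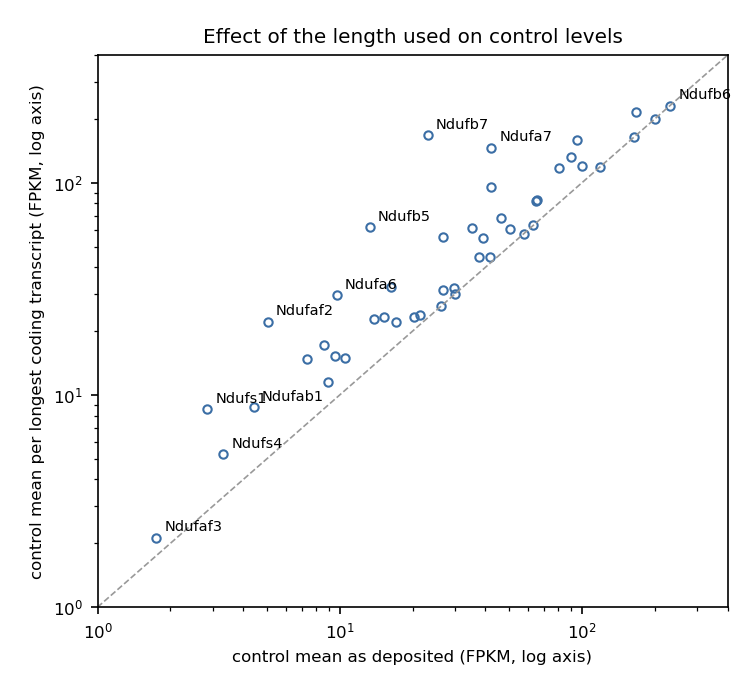
Control mean of each of the 45 Nduf genes with a coding transcript, as deposited (horizontal, FPKM, log axis) and rescaled to the longest coding transcript (vertical, FPKM, log axis). The dashed line marks equality. Points lie on the line or above it, and Ndufb7 lies farthest above (23.1 against 168 FPKM).

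The 7 core subunits, which carry out the electron transfer, were above 0 in 4 and below 0 in 3 with all libraries, with a median difference of 0.14. This split and median moved with the libraries. Without inhibitor replicate 2, 6 of 7 were above 0 (median 0.14), without inhibitor replicate 1, 3 of 7 were (median -0.16), and without inhibitor replicate 3, 4 of 7 were (median 0.078). The median was 0.0053 without control replicate 2 and 0.047 without control replicate 1, with 4 above 0 in both. In the NADH module, Ndufv1, which binds NADH and the flavin, measured 11.1, 7.67 and 10.1 FPKM in the controls and 16.7, 8.76 and 8.02 FPKM under the inhibitor. Inhibitor replicate 1 was above every control and the others were within the control range. Ndufv2, which holds an iron-sulfur cluster next to the flavin, was at 72.8, 54.1 and 69.5 FPKM in the controls and 69.2, 43.6 and 73.99 FPKM under the inhibitor. Here inhibitor replicate 2 was the lowest of all 6 libraries and replicate 3 the highest. Ndufs1, the largest subunit, which carries several of the clusters, was at 2.13, 3.81 and 2.57 FPKM in the controls and 2.63, 3.37 and 3.94 FPKM under the inhibitor, with overlapping groups. The differences of these 3 were 0.14 (SE 0.30), -0.096 (SE 0.24) and 0.18 (SE 0.26), with limma adjusted p of 0.906, 0.925 and 0.854. Without inhibitor replicate 1 the value for Ndufv1 turned to -0.16, and without inhibitor replicate 2 the value for Ndufv2 turned to 0.14 and that for Ndufv1 was 0.27. Without inhibitor replicate 3 the values of the 3 genes were 0.33, -0.24 and 0.078.

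In the quinone module, Ndufs7, which holds the last cluster before ubiquinone, was at 40.1, 33.6 and 31.5 FPKM in the controls and 40.6, 43.3 and 36.6 FPKM under the inhibitor, with overlapping groups and a difference of 0.20 (SE 0.18, limma adjusted p = 0.766). Ndufs8, another iron-sulfur subunit, was the most abundant core transcript, at 174, 173 and 155 FPKM in the controls and 174, 138 and 162 FPKM under the inhibitor. Only inhibitor replicate 2 was below the control range, and the difference was -0.087 (SE 0.16, limma adjusted p = 0.892) with all libraries and 0.0063 without that one. Ndufs3, a core subunit that holds no cluster, measured 34.6, 21.3 and 24.2 FPKM in the controls and 36.9, 34.5 and 36.3 FPKM under the inhibitor. The inhibitor libraries sat close together, the lowest just under the highest control and the others above it, and the difference was 0.44 (SE 0.22, limma adjusted p = 0.618). A processed pseudogene, Gm12251, matches the coding sequence of Ndufs3 at 98.6% and was listed at a mean of 7.54 FPKM beside 31.3 FPKM for Ndufs3, so reads could have been split between them.

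Accessory subunits, which stabilise the core and are needed for assembly, lay above 0 in 27 of 30, with a median difference of 0.28. Without inhibitor replicate 3 this was 25 of 30 and 0.18, and after quantile normalization 23 of 30 and 0.18. In the hydrophilic arm Ndufv3, a small subunit of the NADH module, measured 8.10, 7.50 and 6.36 FPKM in the controls and 8.25, 9 and 10.4 FPKM under the inhibitor. All 3 inhibitor libraries were above all controls, the closest pair being 8.10 and 8.25 FPKM, and the difference was 0.30 (SE 0.22, limma adjusted p = 0.717). Ndufa5, a subunit of the quinone module, was at 28.4, 33.3 and 18.2 FPKM in the controls and 35.4, 34.02 and 48.2 FPKM under the inhibitor. Its groups did not overlap either, and the difference was 0.57 (SE 0.26, limma adjusted p = 0.607). In the other accessory genes of this arm (Ndufa2, Ndufa6, Ndufa7, Ndufa9, Ndufa12, Ndufs4 and Ndufs6) the groups overlapped. Ndufs4, whose loss in mice is a model of the mitochondrial disease Leigh syndrome, was the lowest of them at 3.30 ± 1.07 FPKM in the controls and 2.68 ± 0.297 FPKM in the inhibitor libraries (SD, n = 3 each).

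In the proximal membrane arm 8 of 9 accessory genes lay above 0, with 9 of 9 without inhibitor replicate 2 and 7 of 9 without inhibitor replicate 3. Ndufa1, a small X-linked membrane subunit, measured 141, 187 and 165 FPKM in the controls and 185, 250.3 and 360.4 FPKM under the inhibitor. Inhibitor replicate 1 was just below the highest control, and the other inhibitor libraries were above every control. The difference was 0.64 (SE 0.25, 95% interval 0.077 to 1.21, limma adjusted p = 0.534). Ndufa11, a membrane subunit at the contact with complex III in the respiratory supercomplex, was at 102, 116 and 84.4 FPKM in the controls and 131, 121 and 178 FPKM under the inhibitor. Its groups did not overlap, and the difference was 0.50 (SE 0.21, limma adjusted p = 0.572). Ndufs5, on the intermembrane-space face of the arm, was at 72.6, 62.2 and 59.2 FPKM in the controls and 76.6, 78.2 and 103 FPKM under the inhibitor, again without overlap (difference 0.40, SE 0.19, limma adjusted p = 0.608). Ndufa13, also known as GRIM-19, had the smallest spread of any Nduf gene in the controls, at 26.5, 25.5 and 26.97 FPKM, a coefficient of variation of 2.80%. Under the inhibitor it was at 31.9, 28.2 and 40.6 FPKM, above all controls, with a difference of 0.32 (SE 0.20, limma adjusted p = 0.666). Ndufa10, a subunit with a nucleoside kinase-like fold, was the gene of this arm below 0, at 13.2, 17.4 and 11.02 FPKM in the controls and 19.997, 7.95 and 9.77 FPKM under the inhibitor, with the highest and the lowest library both in the inhibitor group. Without inhibitor replicate 3 the differences were 0.40 for Ndufa1, 0.33 for Ndufa11, 0.26 for Ndufs5 and 0.18 for Ndufa13.

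In the distal membrane arm 10 of 11 accessory genes lay above 0, with Ndufb2 as the exception. Ndufb3, a small membrane subunit, measured 31.02, 31.6 and 27.5 FPKM in the controls and 32.8, 44.6 and 50.7 FPKM under the inhibitor. The groups did not overlap, by a margin of 31.6 to 32.8 FPKM, and the difference was 0.47 (SE 0.21, limma adjusted p = 0.590). The other 10 genes of this arm had overlapping groups, with control means between 6.99 FPKM (Ndufb1-ps) and 231 FPKM (Ndufb6). Ndufb1-ps is the entry the table holds for Ndufb1, and GENCODE M21 types it as a long noncoding RNA from a bidirectional promoter.

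**Figure D3:**
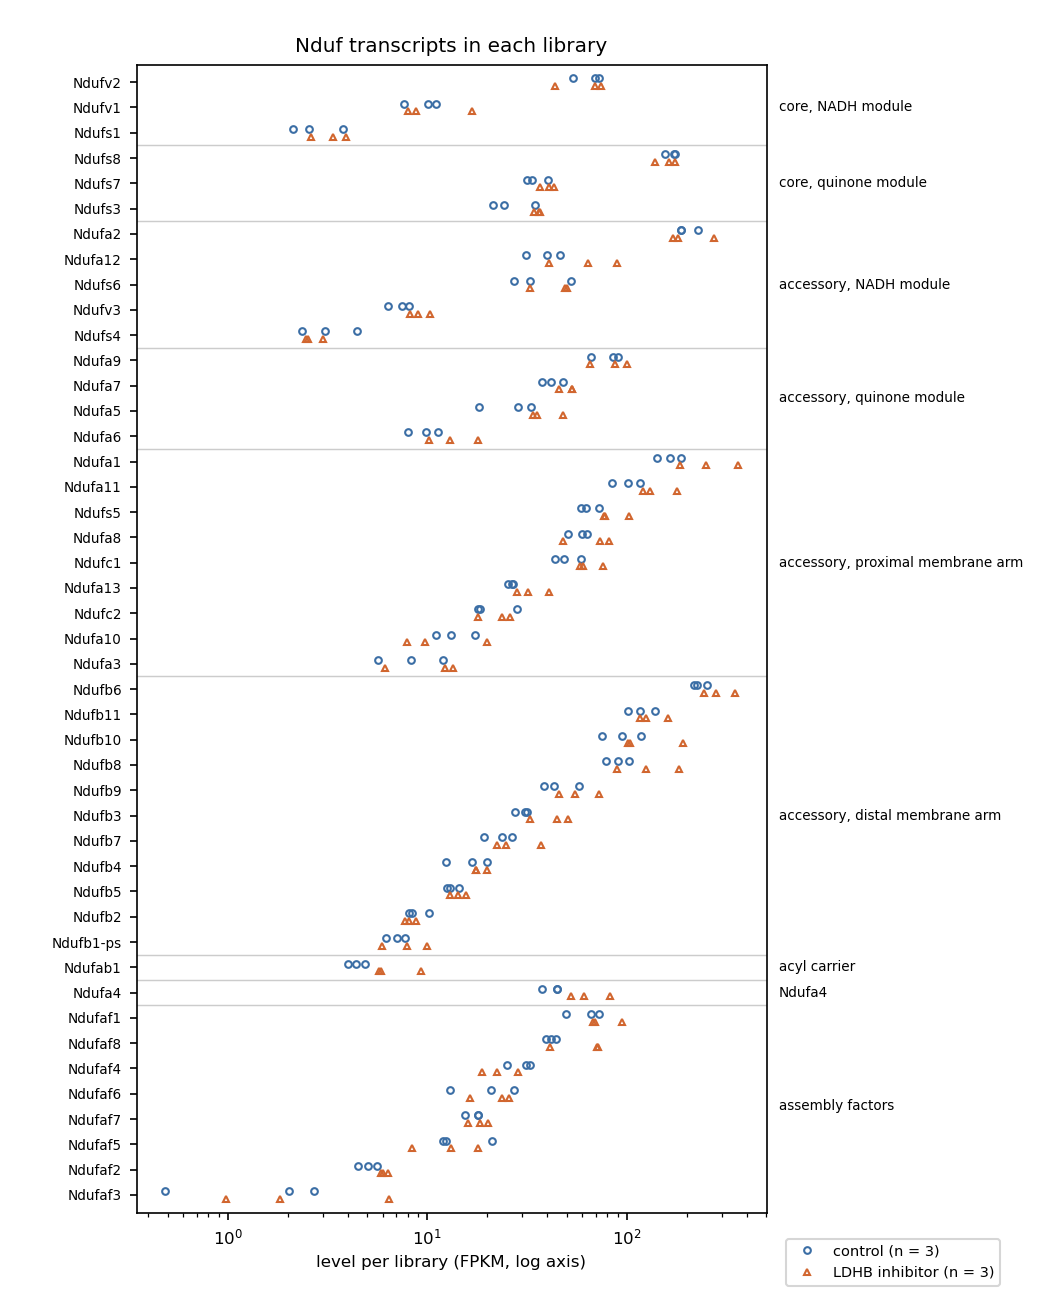
Level of each of 45 Nduf genes other than processed pseudogenes in every library (FPKM, log axis), grouped by role and ordered by control mean; circles are the 3 control libraries and triangles the 3 inhibitor libraries. Levels span 0.486 FPKM (Ndufaf3 in control replicate 3) to 360.4 FPKM (Ndufa1 in inhibitor replicate 3), and in most rows the symbols of both groups interleave.

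A pair of genes in the Nduf name family also serve elsewhere. Ndufab1, the mitochondrial acyl carrier protein, sits in both arms of complex I and carries growing fatty acids in mitochondrial fatty acid synthesis. It measured 4.41, 3.99 and 4.86 FPKM in the controls and 5.90, 5.71 and 9.34 FPKM under the inhibitor, and its groups did not overlap. The difference was 0.53 (SE 0.25, limma adjusted p = 0.609), and 0.33 without inhibitor replicate 3. The processed pseudogenes Gm4459 and Ndufab1-ps match its coding sequence at 99.8% and 99.4% and were listed at means of 5.65 and 3.58 FPKM, close to the 5.70 FPKM of Ndufab1 itself. Ndufa4, first described as a complex I subunit and later placed in cytochrome c oxidase, was at 44.6, 37.8 and 44.5 FPKM in the controls and 61.3, 52.7 and 82.7 FPKM under the inhibitor. Every inhibitor library was above every control, and Ndufa4 had the smallest p of the family (difference 0.60, SE 0.21, 95% interval 0.12 to 1.08, limma adjusted p = 0.493). The groups of Ndufa4 and Ndufab1 stayed apart after median-ratio scaling but not after quantile normalization.

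Promoters are printed for the 3 genes with an unadjusted p under 0.05, for the core gene (Ndufs3) and for the assembly factor (Ndufaf8) with the smallest p among their kind. They come from RefSeq on GRCm38.p6, 250 bases before to 50 after the start of the gene, on the strand of the gene, at chr6:11907401-11907700 (minus), chrX:37191189-37191488 (minus), chr17:56717512-56717811 (plus), chr2:90904672-90904971 (minus) and chr11:120098684-120098983 (plus). Capitals mark matches to an NRF1, ETS or YY1 motif, factors known to act at promoters of respiratory chain genes.
Ndufa4: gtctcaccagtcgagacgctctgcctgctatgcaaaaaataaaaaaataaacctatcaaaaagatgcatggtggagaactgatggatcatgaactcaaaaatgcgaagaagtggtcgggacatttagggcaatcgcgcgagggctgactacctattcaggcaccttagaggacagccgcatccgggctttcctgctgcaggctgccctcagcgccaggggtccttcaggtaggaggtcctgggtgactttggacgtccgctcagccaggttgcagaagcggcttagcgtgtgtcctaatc
Ndufa1: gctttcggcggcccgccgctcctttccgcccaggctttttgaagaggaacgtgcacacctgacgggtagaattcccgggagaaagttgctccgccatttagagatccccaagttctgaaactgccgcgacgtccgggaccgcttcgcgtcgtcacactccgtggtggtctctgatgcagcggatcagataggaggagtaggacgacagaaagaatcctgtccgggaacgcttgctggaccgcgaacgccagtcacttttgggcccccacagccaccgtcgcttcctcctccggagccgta
Ndufa11: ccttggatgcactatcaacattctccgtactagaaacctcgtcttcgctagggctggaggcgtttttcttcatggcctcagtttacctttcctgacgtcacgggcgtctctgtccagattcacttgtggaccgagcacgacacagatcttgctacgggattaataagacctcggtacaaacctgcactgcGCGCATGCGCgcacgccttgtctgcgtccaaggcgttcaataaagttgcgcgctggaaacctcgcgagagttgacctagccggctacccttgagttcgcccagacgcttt
Ndufs3: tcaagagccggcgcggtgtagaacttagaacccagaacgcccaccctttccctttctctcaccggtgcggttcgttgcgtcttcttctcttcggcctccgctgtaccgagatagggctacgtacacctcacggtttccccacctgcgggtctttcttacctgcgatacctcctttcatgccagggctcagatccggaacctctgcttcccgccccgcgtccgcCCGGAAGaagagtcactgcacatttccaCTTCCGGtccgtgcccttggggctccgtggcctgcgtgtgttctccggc
Ndufaf8: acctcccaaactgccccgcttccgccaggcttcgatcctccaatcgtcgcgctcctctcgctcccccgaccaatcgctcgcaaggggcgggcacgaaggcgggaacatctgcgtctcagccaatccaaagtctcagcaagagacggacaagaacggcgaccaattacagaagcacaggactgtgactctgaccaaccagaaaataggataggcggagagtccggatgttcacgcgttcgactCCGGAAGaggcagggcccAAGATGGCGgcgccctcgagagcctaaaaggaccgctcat
The windows of Ndufa4 and Ndufa1 held no match. Ndufa11 held an NRF1 match that reads on both strands, Ndufs3 held an ETS match on each strand, and Ndufaf8 held an ETS and a YY1 match.

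The same letters were searched on both strands in the 40 of 46 Nduf genes that have a promoter entry. The NRF1 motif (GCGCATGCG) was in 4 of them (10%), beside 4.78% of 6256 tested genes with an entry and 1.95% of all 27025 genes with one. The YY1 motif (AAGATGGCG) was in 6 (15%), beside 4.25% of tested genes, and the ETS motif (CCGGAAG) in 6 (15%), beside 24.0% of tested genes. CCAAT was in 35% and TATAAA in 10%, beside 44.8% and 8.79% of tested genes. NRF1 matches were in Ndufa8, Ndufa11, Ndufaf4 and Ndufaf5, and YY1 matches in Ndufa9, Ndufaf8, Ndufc1, Ndufs4, Ndufs6 and Ndufs7. Each match is a description of the letters in the window, not of a bound site.

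The 8 assembly factors of the family were spread around 0, with 6 above, 2 below and a median difference of 0.18 (5 above and 0.075 without inhibitor replicate 3). Ndufaf1, which acts on the membrane arm in the complex that holds Ecsit, Acad9 and Tmem126b, was the most abundant, at 66.1, 49.5 and 72.5 FPKM in the controls and 67.96, 68.97 and 94.8 FPKM under the inhibitor. Inhibitor replicate 3 was the highest library and the groups overlapped. Ndufaf2, a paralog of Ndufa12 that holds its place until late in assembly, was at 5.59, 4.48 and 5.08 FPKM in the controls and 5.99, 6.34 and 5.89 FPKM under the inhibitor. This was the assembly factor whose groups did not overlap, with a difference of 0.23 (SE 0.22, limma adjusted p = 0.766).

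Ndufaf3 and Ndufaf4 work together on the early quinone module. Ndufaf3 was the lowest of the 46 genes in the controls, at 2.03, 2.71 and 0.486 FPKM, and was at 1.83, 0.987 and 6.42 FPKM under the inhibitor, with the lowest value in control replicate 3 and the highest in inhibitor replicate 3. Ndufaf4 was at 32.8, 31.3 and 24.997 FPKM in the controls and 22.4, 18.9 and 28.5 FPKM under the inhibitor. Inhibitor replicates 1 and 2 were below every control and replicate 3 within their range, and the difference was -0.35 (SE 0.22, limma adjusted p = 0.675), or -0.22 without inhibitor replicate 2. Ndufaf5, which hydroxylates an arginine of Ndufs7, was at 11.98, 21.2 and 12.5 FPKM in the controls and 17.98, 8.41 and 13.2 FPKM under the inhibitor, with overlapping groups. Its partner Ndufaf8 was at 41.8, 39.2 and 44.2 FPKM in the controls and 41.3, 70.5 and 71.4 FPKM under the inhibitor. Inhibitor replicates 2 and 3 of Ndufaf8 were well above the controls and replicate 1 was among them, for a difference of 0.50 (SE 0.24, limma adjusted p = 0.608). Ndufaf6, an early-acting factor, was at 27.2, 20.8 and 13.03 FPKM in the controls and 25.7, 16.5 and 23.7 FPKM under the inhibitor. Ndufaf7, a methyltransferase, was at 17.9, 17.9 and 15.4 FPKM in the controls and 20.3, 15.9 and 18.3 FPKM under the inhibitor, and in both genes the groups overlapped.

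Of 12 tested assembly factors with other names, 5 were above 0 and 7 below, with a median of -0.0053, and 0 passed an adjusted limma p of 0.05. Without inhibitor replicate 2, 9 were above 0 (median 0.16), and without inhibitor replicate 3, 6 were (median -0.055). Acad9, an acyl-CoA dehydrogenase relative that works with Ndufaf1 and Ecsit, had the smallest p of the list. It was at 2.24, 2.34 and 1.55 FPKM in the controls and 5.97, 4.43 and 3.18 FPKM under the inhibitor, so the groups did not overlap, with a difference of 0.84 (SE 0.27, limma adjusted p = 0.462). Foxred1, a factor needed in later assembly, was low in all libraries, at 0.783, 0.970 and 0.784 FPKM in the controls and 1.43, 1.86 and 1.48 FPKM under the inhibitor, also without overlap. Ecsit was at 9.81, 16.3 and 17.4 FPKM in the controls and 16.7, 22.4 and 17.7 FPKM under the inhibitor, with overlapping groups.

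Near-identical copies limit how far some members can be told apart, since no source used here says how shared reads were assigned. Of the 46 genes, 13 had another gene matching at least 90% of identity over at least 50% of their coding sequence, and in 8 such a copy was listed at a mean of at least 1 FPKM. The clearest case, chosen after its values were seen, was Ndufa12, an accessory subunit where the NADH and quinone modules meet. Its processed pseudogene Ndufa12-ps on chromosome 5 differs from it at 2 of 399 aligned bases. The 120 bases below run from position 87 to 206 of the Ndufa12 coding sequence (chromosome 10, 447 bases in all) and from 39 to 158 of the pseudogene, and capitals mark the position at which they differ.
Ndufa12: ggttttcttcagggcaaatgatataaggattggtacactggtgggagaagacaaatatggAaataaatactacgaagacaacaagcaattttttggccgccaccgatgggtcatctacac
Ndufa12-ps: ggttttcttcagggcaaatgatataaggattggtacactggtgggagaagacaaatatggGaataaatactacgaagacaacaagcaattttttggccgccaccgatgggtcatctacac
Ndufa12 was at 46.2, 31.2 and 39.8 FPKM in the controls and 64.1, 40.8 and 89.2 FPKM under the inhibitor, and Ndufa12-ps at 219.8, 146 and 116 FPKM and 190.2, 141 and 456 FPKM. The pseudogene was listed above its parent in every library. Its level is set per 402 bases and that of Ndufa12 per 1569. As an estimate of reads, Ndufa12 had 2321, 1448 and 2475 in the controls and 3216.5, 1345 and 3345 under the inhibitor. Ndufa12-ps had 2828, 1733 and 1846 in the controls and 2444.5, 1191 and 4380.5 under the inhibitor. By this estimate Ndufa12 had more reads in control replicate 3 and inhibitor replicates 1 and 2, and Ndufa12-ps in the others. The highest library of both was inhibitor replicate 3, and the differences were 0.66 (SE 0.29, limma adjusted p = 0.589) and 0.57 (SE 0.45, limma adjusted p = 0.730). Without that library they were 0.40 and 0.081, and without inhibitor replicate 2 the value of Ndufa12-ps was 0.92.

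Of the other pseudogenes, Ndufs5-ps matches Ndufs5 at 99.4% and was at 5.39, 6.74 and 6.31 FPKM in the controls and 8.26, 7.47 and 13.2 FPKM under the inhibitor. Its groups did not overlap, as those of Ndufs5 did not (difference 0.54, SE 0.26, limma adjusted p = 0.613, and 0.31 without inhibitor replicate 3). Ndufb4c holds the whole coding sequence of Ndufb4 without a mismatch and was listed at 5.73 ± 1.17 FPKM in the controls, beside 16.3 ± 3.80 FPKM for Ndufb4 (SD, n = 3 each). Ndufs6b matches Ndufs6 at 90.3% and had overlapping groups, with control values from 0.882 to 5.83 FPKM. Ndufa11b, at 94.8%, was listed at no more than 0.175 FPKM in any library.

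Summed over genes, the core and the accessory subunits differed in how the groups compared. The 7 core subunits summed to 318 ± 24.3 FPKM in the controls and 319 ± 37.7 FPKM in the inhibitor libraries (SD, n = 3 each). The 30 accessory subunits summed to 1708, 1726 and 1492 FPKM in the controls and 1900.0, 1809 and 2580.3 FPKM under the inhibitor, so the groups did not overlap and inhibitor replicate 3 was far above the rest. After median-ratio scaling they did overlap: the sums were 1796, 1712 and 1492 in the controls and 1856, 1674 and 2508 under the inhibitor, with inhibitor replicate 2 below 2 of the controls. The core took 16.8%, 14.96% and 16.9% of the summed subunit FPKM in the controls and 15.6%, 13.3% and 11.3% under the inhibitor. In this share inhibitor replicate 1 lay among the controls, and the difference between core and accessory genes was not tested. All 37 nuclear subunits together made up 0.396%, 0.397% and 0.342% of the total FPKM in the controls and 0.459%, 0.419% and 0.636% under the inhibitor. The total itself was 518333 ± 6522 FPKM in the controls and 481974 ± 21956 FPKM under the inhibitor.

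The 7 core subunits from mitochondrial DNA stood on the other side of 0. All 7 mt-Nd genes had a difference below 0, with a median of -0.69, beside 31 of 37 nuclear subunits above 0. The mt-Nd sum divided by the nuclear subunit sum was 6.19, 7.14 and 8.90 in the controls and 4.15, 5.14 and 3.56 under the inhibitor, with no overlap. mt-Nd4l, which overlaps mt-Nd4 in the genome, had the smallest p of the 7, and no adjusted p was under 0.05 (757, 817 and 804 FPKM in the controls, 420.4, 441 and 262 FPKM under the inhibitor, limma adjusted p = 0.353). The nuclear genes of complexes II to V lay above 0 in 35 of 42 tested, with a median of 0.31, close to the 0.28 of the accessory complex I subunits. FPKM is relative to the size of each library, mitochondrial transcripts included. With the library total taken without mitochondrial genes, 42 of 51 Nduf genes were above 0, beside 58.1% of all genes. Their median was 0.26, beside 0.072 over all genes. After median-ratio scaling the median was 0.17 (-0.0032 over all genes), and after quantile normalization 0.15 (-0.026 over all genes). The part of the mt-Nd levels in the nuclear values was not tested.

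**Figure D4:**
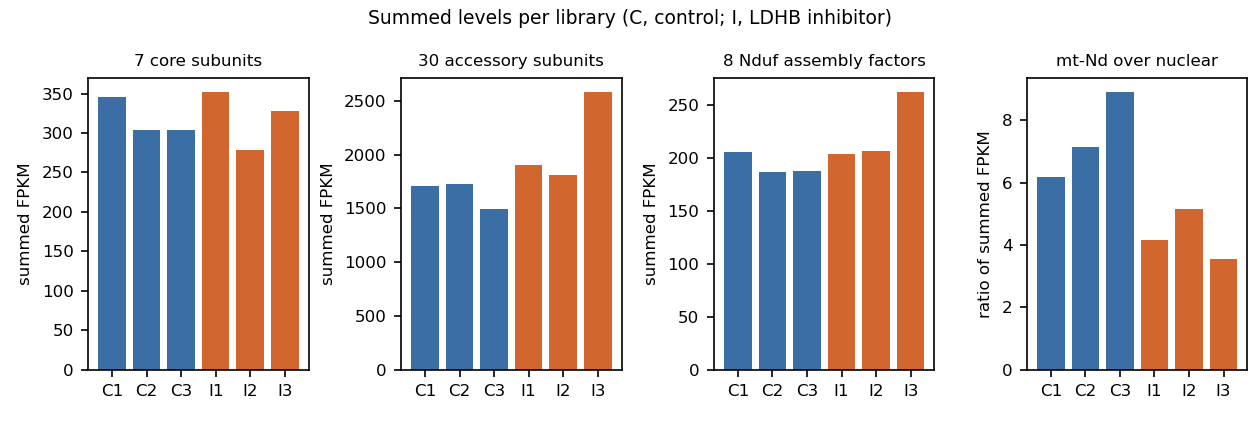
Summed FPKM per library of the 7 core subunits, the 30 accessory subunits and the 8 Nduf assembly factors, and the ratio of the mt-Nd sum to the nuclear subunit sum; C1 to C3 are controls and I1 to I3 inhibitor libraries. The core bars run from 278 FPKM (I2) to 352 FPKM (I1), with group means of 318 and 319 FPKM. The accessory bar of inhibitor replicate 3 is the tallest, and the ratio is lower in each inhibitor library than in each control.

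Much of the difference came with a single library. Inhibitor replicate 3 was the highest of the 6 libraries in 26 of the 46 genes (56.5%), where it was highest in 20.2% of all genes tested. Inhibitor replicate 1 was highest in 8 (17.4%, all genes 16.5%) and inhibitor replicate 2 in 4 (8.7%, all genes 26.5%). Against the control mean of each gene, the median deviation over the 46 genes was 0.10, -0.0098 and -0.11 in the controls and 0.15, 0.10 and 0.45 in the inhibitor libraries, on the log2(FPKM + 1) scale. Control replicate 1 was thus as far above the control mean as inhibitor replicate 2. Without inhibitor replicate 3 the median difference over the 51 genes was 0.13 (0.075 over all genes) and 39 were above 0 (57.3% of all genes). In that fit 0 had an unadjusted limma p under 0.05 as higher (7.72% of all genes) and 1, Ndufaf4, as lower (4.45%). Without inhibitor replicate 2 the median was 0.31 (0.032 over all genes), 46 were above 0 (53.9% of all genes) and 9 had such a p as higher (4.6% of all genes). Without control replicate 3 only Ndufa4 had such a p (3.15% of all genes as higher). Without inhibitor replicate 1 it was 4 higher and 1 lower (4.86% and 4.09% of all genes).

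**Figure D5:**
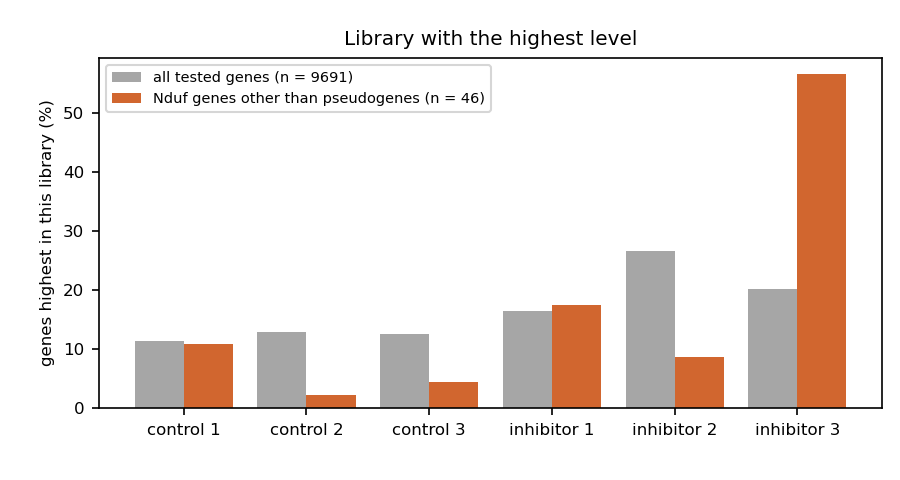
Percent of genes whose highest level is found in each library, for all 9691 tested genes (grey) and for the 46 Nduf genes other than processed pseudogenes (orange). The Nduf bar of inhibitor replicate 3 stands at 56.5% beside 20.2% for all genes.

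Of the Nduf genes whose longest coding transcript has at most 1000 bases, 22 of 22 had a difference above 0 (median 0.28), where 57.5% of the 706 tested genes of that length did (median 0.078). From 1001 to 2000 bases 68.8% of 16 Nduf genes were above 0 (median 0.14), where 54.2% of 2077 tested genes were, and without inhibitor replicate 2 it was 87.5% (median 0.29), where 52.4% were. In inhibitor replicate 3 the short Nduf genes deviated from the control mean by 0.61 at the median, and all tested genes of that length by 0.15, the most of any library. Across 45 Nduf genes the rank correlation of the difference with coding length was -0.37 and, across 46, with control level 0.22 (Spearman, descriptions only, since all genes share the same libraries). Without inhibitor replicate 3, 20 of the 22 short Nduf genes were above 0 (median 0.23), where 52.8% of tested genes of that length were. The length classes were set after the data were seen.

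The spread between libraries was larger under the inhibitor for most members. The coefficient of variation had a median of 15.3% in the controls (2.80% to 65.4%) and 21.3% under the inhibitor (3.54% to 94.9%), and it was the larger under the inhibitor in 32 of 46 genes. The same share over all genes tested was not computed, so the larger spread cannot be called particular to the Nduf genes. Depth limited few of them. From the steps in low values, the libraries held an estimated 32000000, 29600000 and 39600000 reads in the controls and 32000000, 21000000 and 23900000 under the inhibitor, which puts every member but 1 at 100 reads or more in every library. The exception was Ndufaf3, with an estimated 34.9 reads in control replicate 3. Amplified reads without molecular identifiers are not independent molecules, so these numbers describe reads only.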

How the data were processed

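For 6 libraries, an oligo(dT) primer and template switching gave full-length complementary DNA of mouse embryos, which was PCR-amplified, fragmented and read from both ends, per the labels' protocols. The submitters' processing notes name the build GRCm38 and the tools edgeR, DESeq2, StringTie 2.1.6, HISAT2 2.2.1 and cutadapt 1.9, and the sources used here do not say which tool made which column. The FPKM of each gene in each library are the values the authors deposited. The fold change (the ratio of group mean FPKM), its log2 and the p-value and q-value are from the authors' deposited table.

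Values were analysed as log2(FPKM + 1) with limma 3.58.1 (R 4.3.3), with trended and robust empirical Bayes, for the 9691 genes averaging 1 FPKM or more, and Benjamini-Hochberg adjustment over all of them at 0.05. Differences on this scale understate the change of low genes. FPKM are not counts, so no count test was run. Depth was estimated from FPKM multiplied by length in genes with 1 transcript, where the lowest values lie on steps. Each step was taken as 1 read, so the depth is an estimate. Exon lengths and coordinates came from GENCODE M21, promoters from RefSeq (GRCm38.p6), copies from BLAST 2.17.0 (at least 90% identity over at least 50% of the coding sequence), and plots from matplotlib 3.10.9. The fit was tested on simulated data of 9362 genes, 100 of them changed. It recovered 27% of changes of 1 log2 unit and 93% of changes of 2 log2 units, with 17 calls on unchanged genes. Those 17 were a larger share of the calls than the adjusted p of 0.05 aims at. How closely the simulated spread matches that of these libraries is not given here, so the rates are a rough guide. The largest Nduf difference was 0.66, below both sizes, so an Nduf gene that did not pass may still have changed.

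The sample titles gave the groups and the replicate numbers. The members and the lists were chosen with earlier results of these data known. The genes given per library were the core subunits, apart from 1 that is not reported here, those with an unadjusted p under 0.05 or groups without overlap, the 3 highest and the 3 lowest in the controls, Ndufa4, Ndufab1 and the assembly factors, plus up to 3 genes of each other list. Ndufa12, Ndufa12-ps, Ndufs4, Ndufa10, Ndufb7 and the copies were added after their values were seen. The alternatives changed the scaling, the filter, the pseudocount, the fit, the library weights or the use of the replicate number, or left out 1 library. The length scale and the length classes were added after seeing the data.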

Additional observations from a re-analysis of the deposited data

How the results depend on the processing

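Under all 15 alternatives 0 Nduf genes passed an adjusted limma p of 0.05, and among all genes tested 0 did, apart from 12 without inhibitor replicate 1 and 1 without inhibitor replicate 2 (range with 1 library left out, 0 to 12). The number of Nduf genes higher at an unadjusted limma p under 0.05 was 1 with no filter on low values (2.3% of all genes). It was 1 with median-ratio scaling (3.09%), 0 with quantile normalization (2.77%) and 1 with no trend and no robust fit (4.8%). With 1 library left out it was 0 to 9 (3.02% to 7.72% of all genes). The number lower was then 0 to 1 (2.44% to 4.58% of all genes). Nduf genes with all inhibitor libraries above all controls numbered 3 with median-ratio scaling (6.41% of all genes) and 0 with quantile normalization (5.9%). They numbered 11 to 19 with 1 library left out (13.5% to 19.6% of all genes). Of 22 genes whose difference was followed through the alternatives, 19 kept their sign. With 1 library left out, Ndufv1 ranged from -0.16 to 0.33, Ndufv2 from -0.24 to 0.14 and Ndufs8 from -0.16 to 0.0063. The lowest adjusted limma p of the 22 under any alternative was 0.379. The 22 included genes named for a small p or for groups without overlap. Where groups do not overlap, leaving out 1 library cannot turn the sign, so the count is no test of stability. Some genes outside the 22 did turn. Without inhibitor replicate 3, Ndufa2 went from 0.031 to -0.18 and Ndufaf3 from 0.44 to -0.11. Without inhibitor replicate 2, Ndufa10 went from -0.21 to 0.039 and Ndufaf5 from -0.21 to 0.062. Without control replicate 3, Ndufaf6 went from 0.14 to -0.13. The cause was not tested.

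Same-numbered libraries of the 2 groups correlated in their deviations at 0.14, 0.20 and 0.037, and those of unlike number at -0.19 to 0.055. Each inhibitor library correlated best with the control of its own number. Control replicate 3, however, correlated better with inhibitor replicate 1 (0.055) than with its own number. These values do not settle whether the numbers pair the libraries. The main fit took the libraries as unpaired. The fit with the replicate block gave 42 of 51 genes above 0 and a median of 0.25. In that fit 3 were higher at an unadjusted limma p under 0.05 (Ndufa1, Ndufa4 and Ndufa12), where 5% of all genes were. Ndufa11 thus no longer had such a p and Ndufa12 did. By the estimated depth, Ndufaf3 was the gene with fewer than 100 reads in a library.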
